A study of Rattus norvegicus with 16 samples.

Results

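The genes described here are 10 genes of the brain's blood vessel wall, measured in the hypothalamus of 16 rats. Every probe set that the platform table assigns to exactly 1 of them was taken. The genes are the transcription factor genes Sox18, Sox7 and Sox17, the secreted factor gene Egfl7, the receptor genes Tie1 and Pdgfrb, the transporter genes Slco1a4, Abcb1a and Slc2a1, and the tight junction gene Cldn5. They have 17 of the 31042 probe sets that are not controls, and 10 of 14217 named genes. The members were chosen by gene name, with earlier results of these arrays known, and those results had named Sox18, Slco1a4 and Slc2a1 for their log2 differences with restraint. How far other measured values entered the choice is not known. The values with restraint are therefore a description of these 10 genes and no independent test of them.

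Brain capillaries are lined by endothelial cells that are sealed to each other by tight junctions, chiefly of claudin-5, and wrapped by pericytes, which depend on the platelet-derived growth factor receptor encoded by Pdgfrb. This blood-brain barrier lets few molecules pass between cells, so that transport through the cell decides what enters. Glucose enters through the transporter encoded by Slc2a1, P-glycoprotein (Abcb1a) returns many drugs to the blood, and the organic anion transporter encoded by Slco1a4 carries bile acids, steroid conjugates and thyroid hormones. Sox7, Sox17 and Sox18 form the SoxF subgroup of Sox transcription factors and act together in the formation of vessels and in keeping endothelial identity. Egfl7 is secreted by endothelial cells, and Tie1 is an endothelial receptor tyrosine kinase that works with the angiopoietin receptor Tie2.

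The animals were male Wistar rats aged 7 to 8 weeks, 4 in each group, with 1 array of the whole hypothalamus per rat. Control rats had neither restraint nor odour. Restrained rats were held for 2 h, linalool rats inhaled (R)-(-)-linalool, a floral monoterpene alcohol, for 2 h, and restrained linalool rats had both for 2 h. Values below are log2(signal + 16) after quantile normalization, and a difference of 1 on that scale is a doubling of signal plus 16. Differences come with limma's standard error (SE), and a gene is said to have passed the test where its Benjamini-Hochberg adjusted p over 18625 probe sets was under 0.05. In whole tissue, fewer cells of a type and less RNA per cell cannot be told apart.

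Median signals per array lay between 67.03 and 127.4 as deposited. On 3 arrays, those of linalool rats 2 and 4 and restrained linalool rat 2, the BioC hybridization control was between 903.3 and 960.3, against 246.2 to 281.8 on the other arrays. Results are therefore also given for the arrays with low BioC. The ratio of 3' to 5' beta-actin signal, which rises as RNA is shortened, was 4.93 in control rat 1 and between 2.08 and 3.50 in the others. No 2 of the arrays held identical values.

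Each of the 10 genes kept at least 1 probe set above the filter on dim values, and 13 of the 17 probe sets passed it. The others were 2 of the 3 probe sets of Sox17 and 2 of the 3 of Pdgfrb. The nearest to the filter's floor of 6.26 were Sox7, inside it with a mean of 6.33, and a Pdgfrb probe set, outside it with a mean of 5.45. The brightest kept probe set stands for a gene below. Endothelial and pericyte markers outside the list were also measured in the tissue. Pecam1 (6.84 in controls), Flt1 (7.58), Rgs5 (8.45), Cspg4 (7.06), Abcc9 (7.52) and Vtn (8.45) each had a kept probe set, while Cdh5 and Kcnj8 had none. Of 12 neuropeptide genes that mark the hypothalamus, 10 had one.

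Over both odour conditions together, restraint went with lower Sox18, Sox7, Egfl7 and Slco1a4 and higher Slc2a1. These 5 of the 10 genes passed the test, 4 lower and 1 higher, while 4.36% of the 10309 genes tested were called in either direction, 1.93% of them lower and 2.43% higher. Because this comparison helped to choose the list, nothing is read from that count. The median difference over the 10 genes was -0.33, against -0.02 over all genes, and 8 of the 10 were negative, against 57.0% of all genes. With restraint alone against control none of the 10 passed, although 5 had an unadjusted p under 0.05. In that comparison 0.883% of genes were called and 12.3% had such a p. With restraint plus linalool against linalool, Sox18 passed, where 1.73% of genes were called and 0.708% were called lower. In that comparison 7 of the 10 had an unadjusted p under 0.05, against 16.9% of all genes. These comparisons share no arrays with each other.

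**Figure D1:**
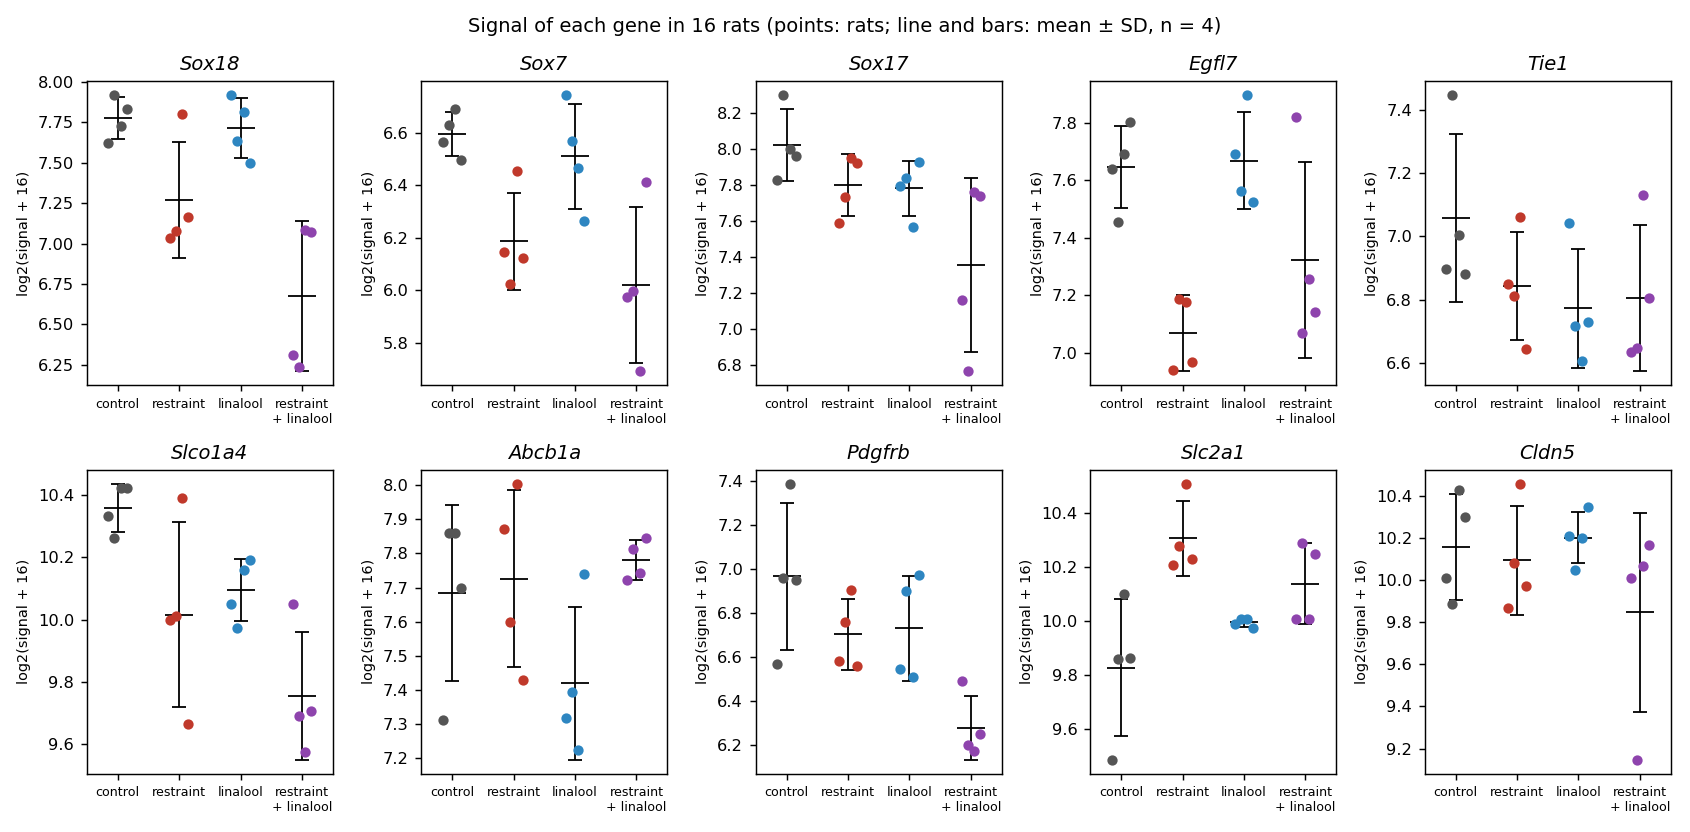
Values of log2(signal + 16) (y axis) for the 10 genes in each of the 4 groups (x axis), with 1 point per rat and the mean ± SD over 4 rats. Sox18, Sox7 and Egfl7 lie lower in most restrained rats, Slc2a1 lies higher in restrained than in control rats, and rat 3 of the restrained group lies above its group mean in every panel.

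Sox18 was 7.62, 7.92, 7.73 and 7.84 in control rats and 7.92, 7.63, 7.81 and 7.50 in linalool rats. In restrained rats it was 7.04, 7.08, 7.80 and 7.17, and in restrained linalool rats 6.31, 6.24, 7.08 and 7.07. Every restrained linalool rat was below every linalool rat, while restrained rat 3 lay within the control range and the other restrained rats below it. Over the genes tested, 8.08% were lower without overlap in restrained linalool against linalool rats. The mean fell by 0.77 on average with restraint (SE 0.14), so that signal plus 16 fell by 41.5%. The difference was -0.51 without linalool (SE 0.20) and -1.04 with it (SE 0.20). Sox18 passed the test for the average restraint effect in the low BioC arrays as well, with a difference of -0.78. Its call with linalool was lost in those arrays. It was also lost with the values as deposited, where Abcb1a, higher, was the member called instead.

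Sox7, its close relative, was 6.56, 6.63, 6.69 and 6.50 in control rats and 6.15, 6.03, 6.45 and 6.13 in restrained rats. These groups did not overlap, where 2.96% of genes were lower in restrained rats without overlap. In linalool rats it was 6.74, 6.57, 6.46 and 6.26, and in restrained linalool rats 5.98, 6.0, 5.69 and 6.41, so that rat 4 of the last group overlapped the linalool rats. Its average fell by 0.45 with restraint (SE 0.10), and the differences were -0.41 without and -0.49 with linalool (SE 0.14 each). Sox7 is the dimmest of the kept probe sets, so the pseudocount weighs most on its difference, which was -0.56 with a pseudocount of 1 and -0.28 with 64. Against the filter's floor of 6.26, its means were 6.60 in control and 6.51 in linalool rats. They were 6.19 in restrained and 6.02 in restrained linalool rats. It was thus kept through the groups where it was high, and its call is no independent support. With no filter it was called as well.

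Sox17, the remaining SoxF gene, did not pass. Its kept probe set had means of 8.02 ± 0.20 (SD, n = 4) in control, 7.80 ± 0.17 in restrained, 7.78 ± 0.15 in linalool and 7.36 ± 0.48 in restrained linalool rats. The last group held its lowest values, 6.76 in rat 2 and 7.16 in rat 1, with 7.76 and 7.74 in rats 3 and 4. The average difference with restraint was -0.32 (SE 0.13), and -0.18 in the low BioC arrays, which leave out rat 2 and 2 linalool rats. Its 2 other probe sets had means of 4.93 and 4.42 over all arrays and were too dim to be tested.

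Egfl7 was read by 2 kept probe sets. The brighter one was 7.64, 7.46, 7.69 and 7.80 in control rats against 6.94, 7.19, 7.18 and 6.97 in restrained rats, with no overlap. For that comparison 2.96% of genes were lower without overlap. The brighter probe set was 7.69, 7.56, 7.90 and 7.52 in linalool rats and 7.82, 7.07, 7.26 and 7.14 in restrained linalool rats. Rat 1 of the last group was thus as high as the linalool rats, and the other rats of that group were below them. The other probe set was 7.30 in that rat and 6.83, 6.78 and 7.01 in the rest, all below the linalool range of 7.46 to 7.64. With linalool, 8.08% of genes were lower without overlap. Without linalool the groups overlapped in this other probe set, with 7.32 in control rat 2 and 7.34 in restrained rat 3. On average over odour conditions, the brighter probe set fell by 0.46 (SE 0.10) and the other by 0.56 (SE 0.09), and both passed. Without linalool the differences were -0.58 and -0.56. With it they were -0.35 and -0.56, and only the dimmer probe set passed there.

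RefSeq promoters of the GRCr8 assembly were matched by symbol for 6 of the 10 genes, and the 250 bases before the start site are used here. That window of Egfl7 lies at chr3:29805381-29805630 on the plus strand. It is shown because Egfl7 fell. Capitals mark AGAACA, 1 arm of the longer palindrome that the glucocorticoid receptor binds.
Egfl7: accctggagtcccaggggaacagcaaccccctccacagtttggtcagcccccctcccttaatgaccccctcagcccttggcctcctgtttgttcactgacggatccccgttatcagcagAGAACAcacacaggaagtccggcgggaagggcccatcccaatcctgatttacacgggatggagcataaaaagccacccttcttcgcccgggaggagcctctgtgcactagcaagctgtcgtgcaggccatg
These letters, or TGTTCT on the other strand, were found once there, 131 bases before the start, and in 1 of the 6 windows. They occur in 17.1% of 27457 RefSeq promoter windows of that length. A match of letters is a description and not evidence of binding.

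Tie1, the endothelial receptor gene, was 7.06 ± 0.27 in control, 6.84 ± 0.17 in restrained, 6.77 ± 0.19 in linalool and 6.80 ± 0.23 in restrained linalool rats (SD, n = 4). Its average difference with restraint was -0.09, with a 95% confidence interval of -0.31 to 0.12, and the sign turned to 0.13 with the values as deposited. All 4 groups overlapped. Pdgfrb, the pericyte receptor gene, was 6.57, 6.96, 7.39 and 6.95 in control rats and 6.58, 6.76, 6.91 and 6.56 in restrained rats. It was 6.55, 6.90, 6.51 and 6.97 in linalool rats and 6.49, 6.20, 6.17 and 6.25 in restrained linalool rats. Every rat that had both treatments was below every rat of the other groups. Rats 2, 3 and 4 with both treatments were also below the filter's floor of 6.26. Without overlap, 5.76% of genes were lower in restrained linalool than in restrained rats, and 8.08% were lower than in linalool rats. The share against control rats is not given here. The average difference of Pdgfrb with restraint was -0.36 (SE 0.11) and did not pass. It passed in 1 of the 25 alternative runs, at -0.42 without control rat 1, the array with the highest beta-actin ratio. With that ratio as a covariate it did not pass.

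Slco1a4, the organic anion transporter gene, was 10.33, 10.26, 10.42 and 10.42 in control rats. Restrained rats had 10, 10.01, 10.39 and 9.66, and rat 3 was again within the control range. Linalool rats had 10.05, 9.97, 10.16 and 10.19, all below the control rats, where 2.61% of genes were lower without overlap. Restrained linalool rats had 10.05, 9.69, 9.58 and 9.71. The average fell by 0.34 with restraint (SE 0.09), with differences of -0.34 both with and without linalool. The call rested on a small margin. It was lost in 14 of the 16 fits that left out 1 array, kept without restrained rat 3 and without restrained linalool rat 1, and lost in the low BioC arrays at -0.33. The other Slco1a4 probe set differed by -0.25 (SE 0.11) and did not pass.

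Slc2a1, the glucose transporter gene of the barrier, was 9.49, 9.86, 10.10 and 9.86 in control rats and 10.21, 10.28, 10.51 and 10.23 in restrained rats. These groups did not overlap, where 3.42% of genes were higher without overlap. Linalool rats lay closely together at 9.99, 10.01, 10.01 and 9.98, and restrained linalool rats had 10.01, 10.29, 10.01 and 10.25, so that the last groups met. The average rose by 0.31 with restraint (SE 0.08), with differences of 0.48 without linalool (SE 0.11) and 0.14 with it (SE 0.11). The call was kept in 4 of the 16 fits that left out 1 array, those without control rats 1 and 3 and without restrained linalool rats 1 and 3. It was lost in the low BioC arrays at 0.28. Astrocytes also carry a form of this transporter, and whole-tissue arrays do not separate the sources.

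The promoters of the transporter genes that passed are shown because these genes differed in opposite directions. The window of Slco1a4 lies at chr4:176495847-176496096 on the minus strand, and that of Slc2a1 at chr5:138002272-138002521 on the plus strand. Capitals mark the Sox core ACAAT or ATTGT and the GC box GGGCGG or CCGCCC.
Slco1a4: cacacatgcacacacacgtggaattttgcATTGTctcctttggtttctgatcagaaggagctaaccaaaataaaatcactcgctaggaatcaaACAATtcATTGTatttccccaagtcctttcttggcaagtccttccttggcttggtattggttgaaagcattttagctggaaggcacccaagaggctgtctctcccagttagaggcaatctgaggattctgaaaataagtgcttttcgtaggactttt
Slc2a1: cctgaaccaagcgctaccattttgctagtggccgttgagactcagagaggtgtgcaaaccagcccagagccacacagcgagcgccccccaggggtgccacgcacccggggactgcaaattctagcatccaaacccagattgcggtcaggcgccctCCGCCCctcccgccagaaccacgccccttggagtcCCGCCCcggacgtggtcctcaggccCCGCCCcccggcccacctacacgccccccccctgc
The Sox core was found in Slco1a4 at 221, 157 and 150 bases before the start and in none of the other 5 windows, against 29.6% of all promoter windows. The GC box was found at 95, 60 and 35 bases before the start of Slc2a1, and also in Abcb1a, Tie1 and Cldn5, 4 of the 6, against 32.4% of all. GC content was 68.4% for Slc2a1 and 42.4% for Slco1a4, where the median of all windows was 52.0%. On both strands the exact letters CCGGAAG, used here for the ETS site (7.74% of all windows), were in none of the 6. Nor were the letters TATAAA of the TATA box (13.1%). Other forms of these sites were not searched, so their absence from the windows is not shown. CCAAT (34.3%) was in Egfl7, Slco1a4 and Cldn5, and the E-box CACGTG (5.79%) in Slco1a4.

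Abcb1a, the drug efflux pump gene, did not pass after normalization. Its brighter probe set was 7.68 ± 0.26 in control, 7.73 ± 0.26 in restrained, 7.42 ± 0.22 in linalool and 7.78 ± 0.06 in restrained linalool rats (SD, n = 4). The average difference with restraint was 0.20, with an interval of -0.01 to 0.42, and that of the other probe set was 0.02, with an interval of -0.25 to 0.28. With linalool the difference of the brighter probe set was 0.36 (SE 0.14), with an interval of 0.06 to 0.67. It did not pass, and with the values as deposited it was called as higher. A further probe set that the table assigns to both Abcb1a and Abcb1b was left out. Cldn5, the tight junction gene, did not pass either. It was 10.16 ± 0.25 in control, 10.09 ± 0.26 in restrained and 10.21 ± 0.12 in linalool rats. In restrained linalool rats it was 10.01, 9.15, 10.07 and 10.17, with rat 2 far below the others. The average difference of -0.21 had an interval of -0.50 to 0.08, and in the low BioC arrays, which leave out that rat, it was -0.10. With the values as deposited it was 0.01.

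**Figure D2:**
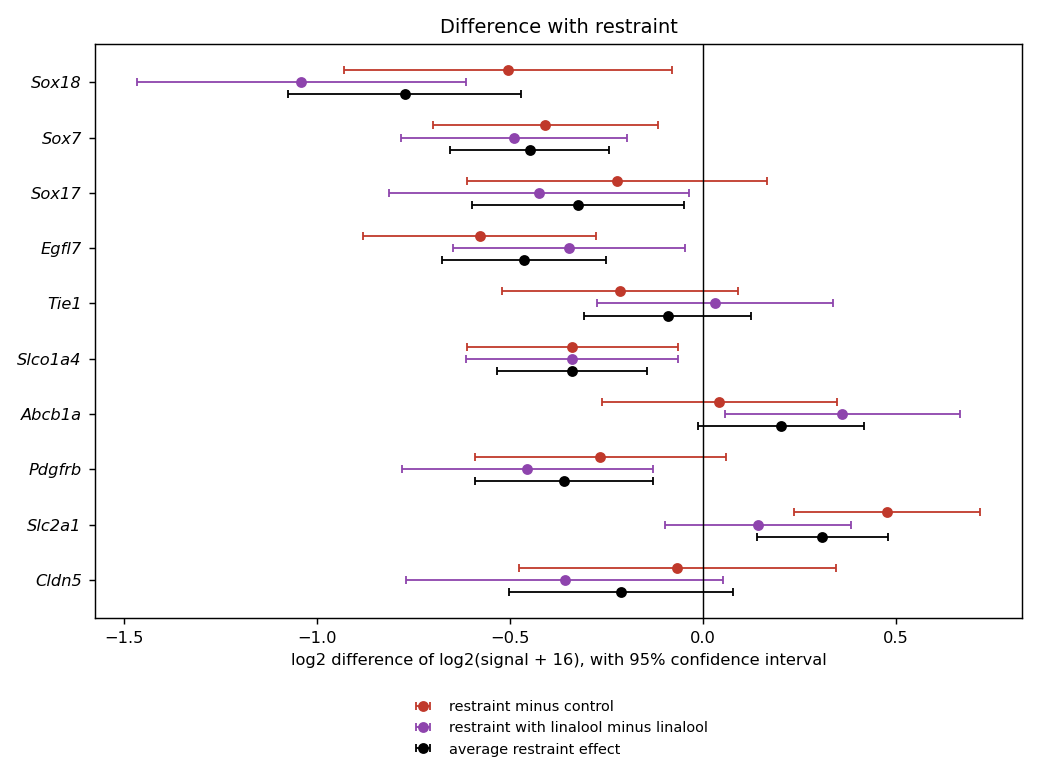
Log2 differences with restraint (x axis) for the 10 genes (y axis), without linalool, with linalool and averaged, each with limma's 95% confidence interval. The average interval lies below 0 for Sox18, Sox7, Sox17, Egfl7, Slco1a4 and Pdgfrb, and above 0 for Slc2a1.

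The deposited values differ in their overall level between arrays, and normalization bears on these directions. With the values as deposited, the median of all probe sets moved by 0.21 for the average restraint effect. The median of the 10 genes was then -0.11, with 6 of 10 negative, and 8 of 10 lay below the median of all probe sets, as many as after normalization. Of all probe sets called, 98.2% were higher on those values, against 62.9% of 784 after normalization. Only Sox18 (-0.54) and Slc2a1 (0.53) passed on those values. Scaling each array to a common median instead kept Sox18, Sox7, Egfl7 and Slco1a4 as lower, and Slc2a1 at 0.28 did not pass.

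Related genes were taken from lists that leave out the 10 genes, to see how far the differences were shared. Most of these lists were drawn up around the vessel wall and its signals. Those of other Sox genes and of glucose and monocarboxylate transport hold genes of many cell types. The other lists also hold genes that are not limited to vessel cells, Tfrc, Slc6a6 and Axin2 among them. Whole-tissue arrays do not separate the sources. All lists were chosen with earlier results of these data known. The counts stand beside 4.36% of all genes called, 2.43% higher and 1.93% lower. Of 27 measured endothelial identity genes 2 passed, and both were higher. Klf2, a transcription factor induced by blood flow, rose by 0.70 (SE 0.18, adjusted p = 0.0366), and the adhesion receptor gene Adgrl4 rose by 0.31 (SE 0.07, adjusted p = 0.0168). The list's median was 0.05, against -0.02 over all genes, with 15 positive and 12 negative differences. Among the defining endothelial markers, Pecam1 differed by 0.01 (SE 0.11), Tek by -0.03 (SE 0.10), Flt1 by 0.40 (SE 0.16) and Kdr by -0.46 (SE 0.15), none of which passed. Klf2 kept its call in 7 of the 16 fits that left out 1 array and Adgrl4 in all 16. Of 12 measured pericyte and smooth muscle genes none passed, with a median of 0.01, and of 8 tight junction and caveola genes none passed, with a median of 0.00. The occludin gene Ocln was among the latter at -0.25 (SE 0.11, adjusted p = 0.217), with 7.07 in restrained linalool rat 2, the same rat that was low in Cldn5.

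Among 17 measured transporters and receptors of the barrier, 4 passed. The transferrin receptor gene Tfrc, which carries iron into the brain, fell by 0.47 (SE 0.07, adjusted p = 0.00154). Its values were 10.37 to 10.70 in control, 9.99 to 10.41 in restrained, 10.36 to 10.61 in linalool and 9.77 to 10.04 in restrained linalool rats, with no overlap between the last 2 groups. Slco2b1, another organic anion transporter gene, fell by 0.49 (SE 0.10, adjusted p = 0.00865), and the taurine transporter gene Slc6a6 fell by 0.35 (SE 0.08, adjusted p = 0.0193). Slc3a2, the heavy chain shared by several amino acid transporters, rose by 0.23 (SE 0.05, adjusted p = 0.0212), a call lost without linalool rat 1. It was also lost with each array scaled to a common median (0.18, adjusted p = 0.106) and with the values as deposited (0.44, adjusted p = 0.0538). Its partner Slc7a5 differed by -0.40 (adjusted p = 0.0586) and Slco1c1, a thyroid hormone transporter gene, by -0.27 (adjusted p = 0.0546), neither past the test. Both were singled out after their values were seen. In restrained linalool against linalool rats, Tfrc (-0.61, adjusted p = 0.00633) and Slco2b1 (-0.61, adjusted p = 0.0317) passed as well. Neither did with the values as deposited.

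In the lists of vascular signalling, Hey2, a Notch target of arterial endothelium, fell by 0.42 (SE 0.08, adjusted p = 0.00663), 1 of 16 measured ligand, receptor and Notch genes. Axin2, a target and inhibitor of Wnt signalling, fell by 0.53 (SE 0.10, adjusted p = 0.00606), 1 of 14 genes of the Wnt programme that maintains the barrier. Of 6 measured Sox genes outside the SoxF subgroup, Sox2 fell by 0.44 (SE 0.10, adjusted p = 0.0206) and Sox3 by 0.30 (SE 0.07, adjusted p = 0.0274). Both are known from neural progenitors and glia rather than vessels. Sox3 kept its call in 11 of the 16 fits that left out 1 array. Of 8 measured genes of glucose and monocarboxylate transport, the glucose transporter gene Slc2a8 fell by 0.28 (SE 0.07, adjusted p = 0.0273) and kept its call in 10 of those 16 fits. In all 11 of 108 measured genes on these lists passed, 3 higher and 8 lower, beside the 4.36% of all genes called. The lists were chosen with earlier results of these data known, so this count is a description and no independent test. With the values as deposited the calls turned to 7 higher and none lower, of which Adgrl4 and Klf2 were called after normalization too. All 7 were of the endothelial identity list. In that list 24 of 28 differences were then positive, and 17 of 28 lay above the median of all probe sets. On those values 1035 of 18625 probe sets were called. No related gene called after normalization changed sign. In the low BioC arrays 5 passed, 1 higher and 4 lower, and without linalool rat 1 there were 7.

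**Figure D3:**
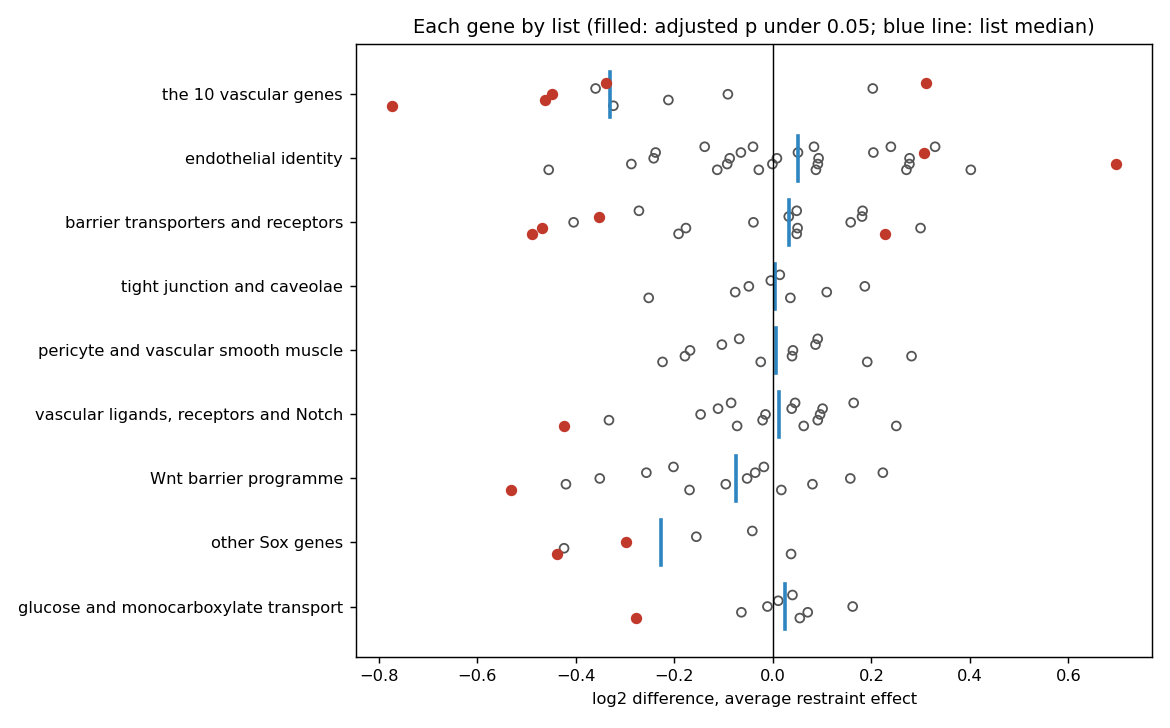
Log2 difference of each measured gene for the average restraint effect (x axis) in the 10 vascular genes and 8 related lists (y axis). Filled points passed the test and the blue line is each list's median, which is -0.33 for the 10 genes and 0.05 for the endothelial identity list.

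None of the 10 genes passed in any linalool comparison. The list's rule names genes only, so whether these comparisons bore on the choice is not known, and they are no independent test of the list. Against control, linalool rats differed by -0.28 in Tie1, -0.26 in Abcb1a, -0.26 in Slco1a4 and 0.17 in Slc2a1, with a smallest adjusted p of 0.529 in limma over the 10 genes. The dimmer Abcb1a probe set differed by -0.42 (adjusted p = 0.459). No gene of all those tested was called there by limma (0%), 10% had an unadjusted p under 0.05, and 0 of the 10 were among these. In restrained rats, linalool went with differences of -0.60 in Sox18 (interval -1.02 to -0.17), -0.44 in Sox17, -0.43 in Pdgfrb and 0.25 in Egfl7. The smallest adjusted p was 0.208, 3 of the 10 had an unadjusted p under 0.05 against 11.2% of all genes, and 0.398% of genes were called. Averaged over restraint conditions, 8 of 10 differences were negative, against 54.6% over all genes, from -0.34 in Sox17 to 0.14 in Egfl7, with a smallest adjusted p of 0.167. For that average 0.504% of genes were called, and 4 of the 10 had an unadjusted p under 0.05, against 14.5% of all genes. Without control rat 1, Pdgfrb passed as lower. The 3 arrays with high BioC were all of rats that inhaled linalool. For the average linalool effect 133 probe sets were called, against 1 with the BioC level as a block and 0 in the low BioC arrays. In the low BioC arrays the median of the 10 genes for that average was -0.15, with 8 negative. For linalool against control it was -0.11 there with 5 negative, and -0.16 with 7 negative over all arrays.

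Most genes on the related lists had negative differences with linalool, and none passed the test. Markers of some other cell types lay the same way, and those of others did not. Against control, 81 of the 108 were negative, beside 49.1% of all genes, with a median of -0.11 against 0.00 over all genes. Of the 27 endothelial identity genes 23 were negative there, with a median of -0.17. In the same comparison 10 of 10 astrocyte markers (median -0.07) and 8 of 9 oligodendrocyte markers (median -0.18) were negative. So were 10 of 10 fibroblast and meninges markers (median -0.40) and 2 of 2 blood markers (median -0.06). The shift was thus not limited to vascular genes, but other lists did not share it. Choroid plexus and ependyma markers were positive in 5 of 5 (median 0.26), neuropeptide genes in 8 of 10 (0.21) and pituitary markers in 2 of 3 (0.49). Microglial markers were 5 positive and 5 negative (median -0.002), and neuron markers 4 positive and 6 negative (median -0.01). For the average linalool effect 83 of 108 were negative, beside 54.6% of all genes, with a median of -0.09 against -0.01. In restrained rats 70 of 108 were negative, beside 58.3% of all genes, with a median of -0.06 against -0.03. The endothelial identity genes there were 18 of 27 negative, and with the values as deposited 13 of 28.

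Whether the difference with restraint itself depended on linalool was tested as the interaction. None of the 10 genes passed, and 0% of all genes were called by limma, with 7.16% of all and none of the 10 at an unadjusted p under 0.05. For Sox18 the interaction was -0.54, with a 95% confidence interval of -1.14 to 0.07, so that a larger fall with linalool and no difference are both within it. For Slc2a1 it was -0.34, with an interval of -0.68 to 0.01. For Slco1a4 it was close to 0, with an interval of -0.39 to 0.39. The interaction with the values as deposited had a median of 0.10 over the 10 genes, beside a shift of 0.22 in all probe sets. After normalization that median of the 10 genes was -0.14, with 7 negative. In the low BioC arrays it was 0.03, with 4 negative.

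**Figure D4:**
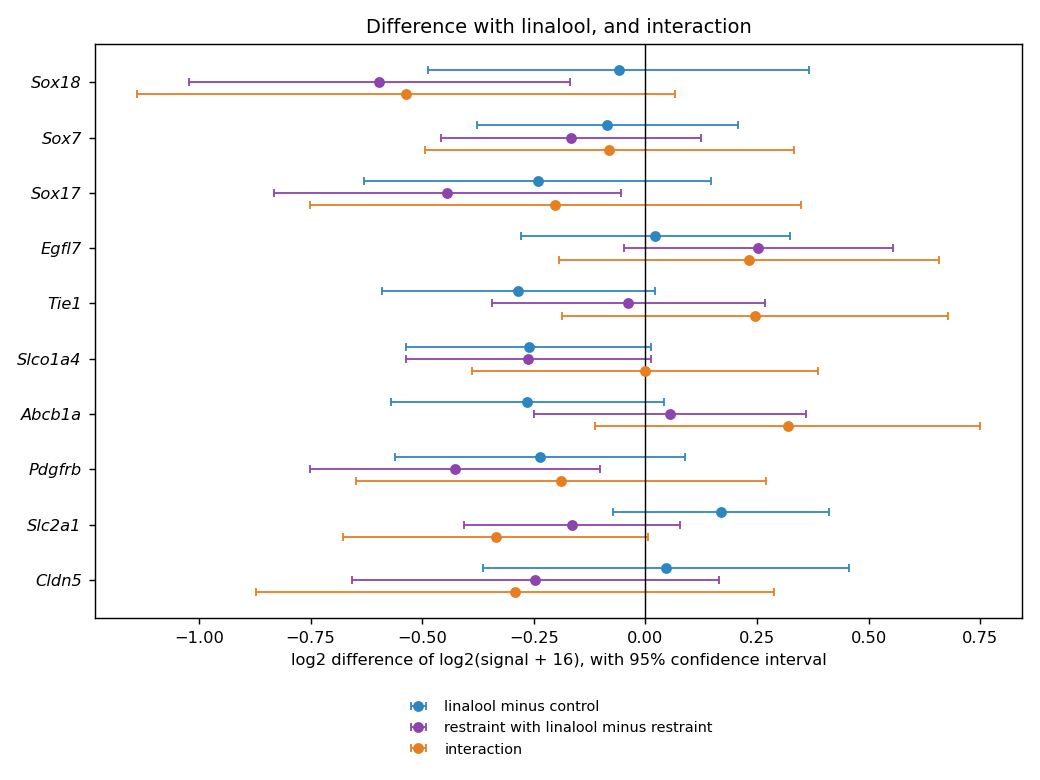
Log2 differences with linalool in unrestrained and in restrained rats, and the interaction of restraint and linalool (x axis), for the 10 genes (y axis), with 95% confidence intervals. All 10 interaction intervals include 0, and the interval of Sox18 among restrained rats lies from -1.02 to -0.17.

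Rats differed within groups in a way that several of the 10 genes shared. In restrained rat 3 all 10 genes were above their group mean, by 0.27 on average, and in control rat 1 all 10 were below it, by 0.18 on average. Restrained linalool rat 2 had 8 of 10 below its group mean. Averaged over the 9 genes without Slc2a1, each centred on its mean over all arrays, the restrained rats had -0.14, -0.10, 0.23 and -0.19. Control rats had 0.07, 0.28, 0.34 and 0.24, linalool rats 0.13, 0.05, 0.03 and 0.11, and restrained linalool rats -0.22, -0.51, -0.19 and -0.12. Restrained rat 3 thus lay among the control rats, and the other 7 restrained rats lay below all unrestrained ones. Slc2a1, which was called higher, is left out of this average, and the genes were chosen with earlier restraint results known. The separation is therefore a description of these genes and no test of restraint.

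Markers of other cell types were set beside these values. Genes of fibroblasts and meninges, the connective tissue around the brain and its larger vessels, had a summed log2 signal of 13.17 in restrained rat 3, against 12.11 to 12.71 in the rest of its group. It was 11.40 in restrained linalool rat 2, against 12.17 to 13.24 in the rest of that group. Restrained linalool rat 1 had the highest value of all, 13.24, with 4 of the 10 vascular genes above its group mean. By group the sum ran from 12.17 to 12.81 in control, 12.11 to 13.17 in restrained, 11.89 to 12.26 in linalool and 11.40 to 13.24 in restrained linalool rats. For the average restraint effect none of these 10 marker genes passed, 9 of 10 were positive, and their median was 0.16. For the average linalool effect none passed and all 10 were negative, with a median of -0.32. Their part in the differences of the vascular genes was not tested.

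The haemoglobin gene Hbb and Alas2, the only measured markers of blood out of 7, differed by 0.35 and 0.41 with restraint, and neither passed. Their summed signal was 11.51 to 12.51 in control, 12.38 to 13.28 in restrained, 11.53 to 12.89 in linalool and 11.39 to 12.70 in restrained linalool rats. Microglial markers moved with restraint in part. Of 10 measured, 3 passed. The ADP receptor gene P2ry12 fell by 1.00 (SE 0.12, adjusted p = 0.000237). Gpr34, a lysophospholipid receptor gene, fell by 1.17 (SE 0.16, adjusted p = 0.000592), and Cx3cr1, the fractalkine receptor gene, fell by 0.49 (SE 0.09, adjusted p = 0.00603). The list's median was 0.01, and its summed signal was 11.73 to 11.82 in control, 11.41 to 11.79 in restrained, 11.58 to 11.96 in linalool and 11.55 to 12.35 in restrained linalool rats. Among 10 astrocyte markers Gjb6, a connexin gene, rose by 0.29 (SE 0.06, adjusted p = 0.00833). Among 9 oligodendrocyte markers Opalin fell by 0.76 (SE 0.19, adjusted p = 0.0305), and among 10 neuropeptide genes Tac3 fell by 0.41 (SE 0.08, adjusted p = 0.00666). None of 10 neuron markers, 5 choroid plexus and ependyma markers or 3 pituitary markers passed. The pituitary markers had a summed signal of 7.70 in control rat 3, against 12.38 to 12.75 in the other control rats. It was 12.14 to 12.77 in restrained, 11.42 to 12.07 in linalool and 11.19 to 12.55 in restrained linalool rats. Its part in the differences of the vascular genes was not tested. Somatostatin, Sst, was the list gene that rose for the average linalool effect, by 0.37 (SE 0.08, adjusted p = 0.0421). It did not pass with the values as deposited or with each array scaled to a common median. Nor did it pass in the low BioC arrays, where 0 probe sets were called for that effect. The arrays with high BioC were all of rats that inhaled linalool. For restraint, P2ry12, Gpr34 and Gjb6 passed with the values as deposited, and Cx3cr1, Opalin and Tac3 did not.

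**Figure D5:**
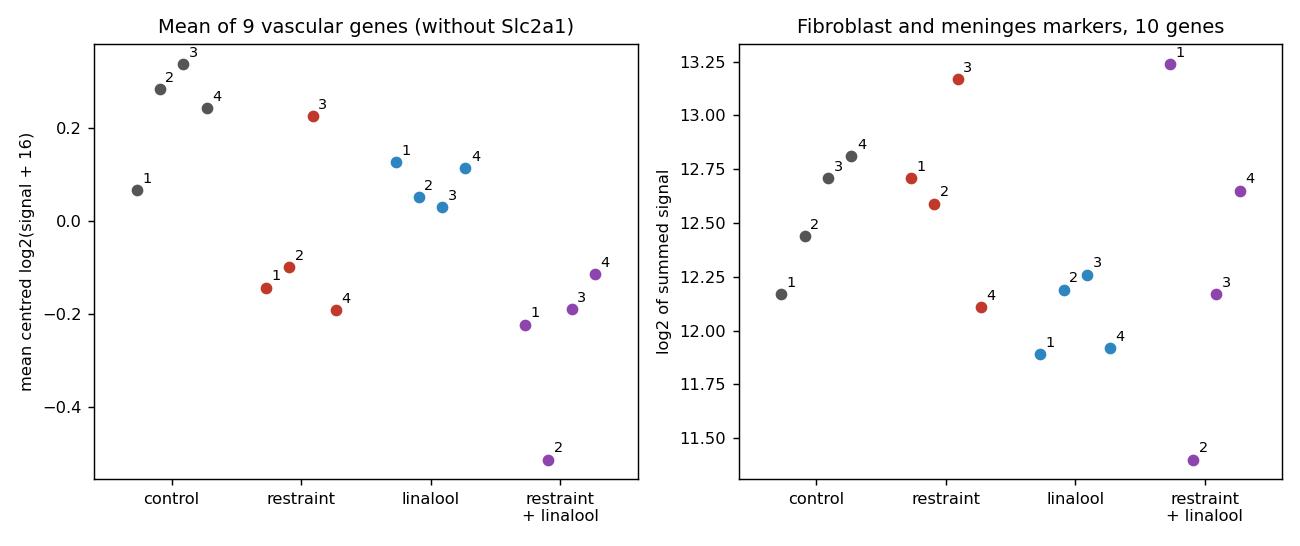
Left, the mean of 9 vascular genes (all but Slc2a1), each centred on its mean over 16 arrays, per rat (numbers are the labels' replicate numbers). Right, the log2 of the summed signal of 10 fibroblast and meninges markers per rat, with restrained rat 3 at 13.17 and restrained linalool rats 1 and 2 at 13.24 and 11.40.

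Genes with values most like those of 3 of the 10 were found by the root-mean-square difference over 16 arrays, after each gene was centred on its mean. Nearest to Sox18, whose own root-mean-square departure from its mean was 0.52, were Tmem234 (0.24), Nrarp (0.25), a Notch target, and Slco2b1 (0.26). Nearest to Slco1a4, with a departure of 0.27, were Arhgap27 (0.16), Snx4 (0.16) and Abhd10 (0.165), and nearest to Slc2a1, with 0.23, were Ralgds (0.15), Mro (0.15) and Pitpnm2 (0.15). For Slco1a4 and Slc2a1 the distances are large beside the genes' own departures, so the likeness is loose.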

How the data were processed

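Per the labels, TRIzol-extracted and column-purified total RNA of the hypothalamus was turned into biotin-labelled cRNA for 1 single-colour array per rat, 4 rats in each of 4 groups. The values used were the deposited signal intensity of 31099 probe sets on a linear scale. Per the submitters' processing notes the software was MAS5. The version and target value are not given in the sources used here. Of these, 57 control probe sets were left out after normalization.

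The deposited intensity values were quantile-normalized, and log2(signal + 16) was used, 16 being the pseudocount. Probe sets with a mean at or above the 40th percentile were kept (18625). Gene names came from the platform table: 20826 probe sets had 1 symbol, 436 several and 9780 none in the table used here. Looking the symbols up by gene ID changed 0 of them, and 68 IDs were not in the gene table.

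Differences were tested in 1 group-means model over all arrays with limma 3.58.1 in R 4.3.3 (two-sided, 12 residual and 3.97 prior degrees of freedom), with Benjamini-Hochberg adjustment over the kept probe sets. The script was tested on simulated data. Each array is labelled as a separate rat, so precision depends on how many arrays a group has. Named genes were all of the 10, up to 4 called genes of each list for the average restraint effect and up to 2 for each other comparison, the 2 smallest p-values where a related list had no call, and the 3 nearest genes of Sox18, Slco1a4 and Slc2a1. Pecam1, Tek, Flt1, Kdr, Rgs5, Cspg4, Abcc9, Vtn, Hbb and Alas2 were added as defining markers. The 10 genes and all lists were chosen with earlier results of these data known. The 2 lists of other Sox genes and of glucose transport hold genes of many cell types. The other related lists also hold genes that are not limited to vessel cells. Alternatives were other scalings, pseudocounts and filters, the BioC level and the replicate number as blocks, each array left out, and the beta-actin ratio as a covariate, which was chosen after seeing the data.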

Additional observations from a re-analysis of the deposited data

Results flagged for a closer look

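In 52 sets of 4 rats, the 13 kept probe sets in each of the 4 groups, 2 single rats stood far from the rest of their group by Dixon's criterion at the 95% level, and chance gives about 1 in 20 such sets. Sox18 was 7.81 in restrained rat 3, against 7.17 in the nearest and 7.04 in the farthest rat of that group. Cldn5 was 9.15 in restrained linalool rat 2, against 10.01 in the nearest and 10.17 in the farthest. The same rats stood at an end of their group in the fibroblast and meninges markers or the vascular average given above.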

How the results depend on the processing

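The number of the 10 genes called for the average restraint effect, 5, was 2 with the values as deposited, 3 with no filter, 3 in the low BioC arrays and 2 with a filter at the 60th percentile, which leaves 5 of them tested. Calls over all probe sets moved as well. They were 784 of 18625 in the main run, 1035 of 18625 with the values as deposited and 457 of 18625 in the low BioC arrays. With no filter they were 523 of 31042, and with the filter at the 60th percentile 616 of 12417. With 1 array left out they were 489 to 1004. The number of the 10 genes called was then 3 to 5. It was 3 without control rats 2 or 4, restrained rats 1, 2 or 4, any of the linalool rats, or restrained linalool rats 2 or 4. Sox18, Sox7 and Egfl7 were called in all 16 of those fits. For restraint without linalool the count of 0 became 1 with a pseudocount of 64, with the filter at the 60th percentile and with the beta-actin covariate (Slc2a1 each time), and was 0 to 1 with 1 array left out (Slc2a1 without control rat 3, Egfl7 without restrained linalool rat 1). For restraint with linalool the count of 1 became 0 in the low BioC arrays and with the filter at the 60th percentile, which removes Sox18. With the values as deposited it stayed at 1, but as Abcb1a, higher, in place of Sox18, lower. It was 0 to 2 with 1 array left out, at 0 without linalool rats 1 or 3 and restrained linalool rats 1 or 2, and at 2 without restrained linalool rat 4 (Sox18 and Sox7). For the average linalool effect it was 0 to 1. The 11 related genes called for the average restraint effect were 7 with the values as deposited, 7 with no filter, 5 in the low BioC arrays and 7 to 14 with 1 array left out. For restraint with linalool the count of 3, all lower, became 8 others, all higher, with the values as deposited, so that Tfrc, Slco2b1 and Hey2 lost their calls. It was 1 with no filter, 0 in the low BioC arrays and 1 to 5 with 1 array left out, at 1 without linalool rat 3 or restrained linalool rats 2 or 3. For restraint without linalool it was 1 with scaling to a common median and 0 to 1 with 1 array left out. The causes were not tested. With the labels' replicate number as a replicate block, 4 of the 10 genes were called for the average restraint effect, all but Slco1a4, and 12 related genes. Nothing in the labels pairs rats by number: deviations from the group means correlated at a median of 0.00 over 24 same-numbered pairs, and 4 of these were over 0.1. None of the 5 called differences for the average restraint effect changed sign under any alternative run.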
